A study of Danio rerio with 17 samples.

Results

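The open chromatin of wild type cranial neural crest cells is described here from the 4 wild type ATAC-seq libraries of a zebrafish study. Peaks of the 4 libraries were merged wherever they overlapped by 1 bp or more, which gave 17458 regions, and the 4927 regions with a peak in all 4 libraries (28.2%) are called the core. The study holds 17 samples, of which 8 are ATAC-seq libraries and the others RNA-seq libraries. The ATAC-seq libraries form a prdm3 set, with 2 wild type and 2 prdm3-/- libraries, and a prdm16 set, with 2 wild type and 2 prdm16-/- libraries. All cells were sox10:GFP positive cells of the head, sorted from dissociated pooled embryos at 48 hours post fertilization. The wild type libraries of both sets carry the same genotype label, wildtype, and their titles differ in the set and in the replicate number (1 or 2 in each set). The names of the deposited peak lists instead number the wild types on across the sets. A like replicate number in both sets is thus a feature of the titles alone. The number of embryos in a pool is not given in the sources used here, and nothing in the labels says that replicates came from separate clutches or sorts, so the spread between libraries may be technical.

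ATAC-seq uses the transposase Tn5, which cuts and tags DNA where no nucleosome or other compact packing shields it. A peak is a place where such cuts pile up, as they do at active promoters and enhancers. Neural crest cells leave the dorsal neural tube, and those of the head settle in the pharyngeal arches, where they form the cartilage and bone of the face. sox10 encodes a transcription factor of the neural crest lineage, and its reporter also marks glia, pigment cells, the otic vesicle and early cartilage in zebrafish, so a sort on this reporter can hold several cell types. Prdm3 and Prdm16 are zinc finger proteins related to histone methyltransferases.

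The libraries differed in how many peaks they held. The prdm3-set libraries had 13658 peaks in replicate 1 and 8187 in replicate 2, and the prdm16-set libraries had 14074 in replicate 1 and 6777 in replicate 2. They covered 9.96 and 6.92 Mb in the prdm3 set, against 9.78 and 5.44 Mb in the prdm16 set. The lowest area under a peak was 200 in every library, and the lowest −log10 p lay between 2.57 and 2.67, so the lists share a floor. The peak lists carry no read totals, so the depth is unknown and a missing peak can reflect it. The identity of the sorted cells could not be checked on the peaks, because no gene annotation of their genome build (danRer11) was used here. The authors' deposited tables hold only genes selected on a mutant difference, so a marker missing there is not shown to be unexpressed. In these tables, 4 of 49 cell type markers had wild type RNA values, 2 of them among the 10 markers of cranial crest. foxd3, a crest transcription factor, had 3.24, 3.10 and 3.40 FPKM in wild type replicates 1, 2 and 3. prrx1a, a transcription factor of the head mesenchyme, had 25.3 and 22.0 FPKM in replicates 2 and 3. The pigment gene dct had 5.50 and 2.51 FPKM and the otic gene oc90 0.268 and 0.425 FPKM in the same libraries. The values of foxd3 came from the table for the prdm16 mutant and those of the other markers from the table for the prdm3 mutant. Markers that are not in those tables were not analysed here.

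The core was the largest of the 15 combinations of libraries. It was followed by the 4000 regions held by replicate 1 of both sets and by no other library, and by the 2940 regions of prdm16-set replicate 1 alone. The regions in exactly 3 libraries numbered 2000 (11.5%), those in exactly 2 numbered 4852 (27.8%) and those in 1 numbered 5679 (32.5%). With peaks of −log10 p of 4 or more alone, a threshold chosen after seeing the data, the core was 2104 of 8927 regions (23.6%). The share of a library's peaks that lay in the core was lower the more peaks it had. By construction every library has a peak in each core region, and the libraries had 5222 to 5324 peaks there. The share thus mostly restates the length of the list. In the prdm3 set 38.4% (37.6 to 39.2%) of the peaks of replicate 1 and 63.8% (62.7 to 64.8%) of those of replicate 2 lay in core regions. In the prdm16 set the shares were 37.8% (37.0 to 38.6%) and 78.6% (77.6 to 79.5%). These are 95% Wilson intervals, which cover counting error only. The shortest list, prdm16-set replicate 2, added 71 regions of its own, 1.12% of the regions it held, while prdm3-set replicate 1 added 1721 (13.0%), prdm3-set replicate 2 947 (12.0%) and prdm16-set replicate 1 2940 (21.6%).

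**Figure D1:**
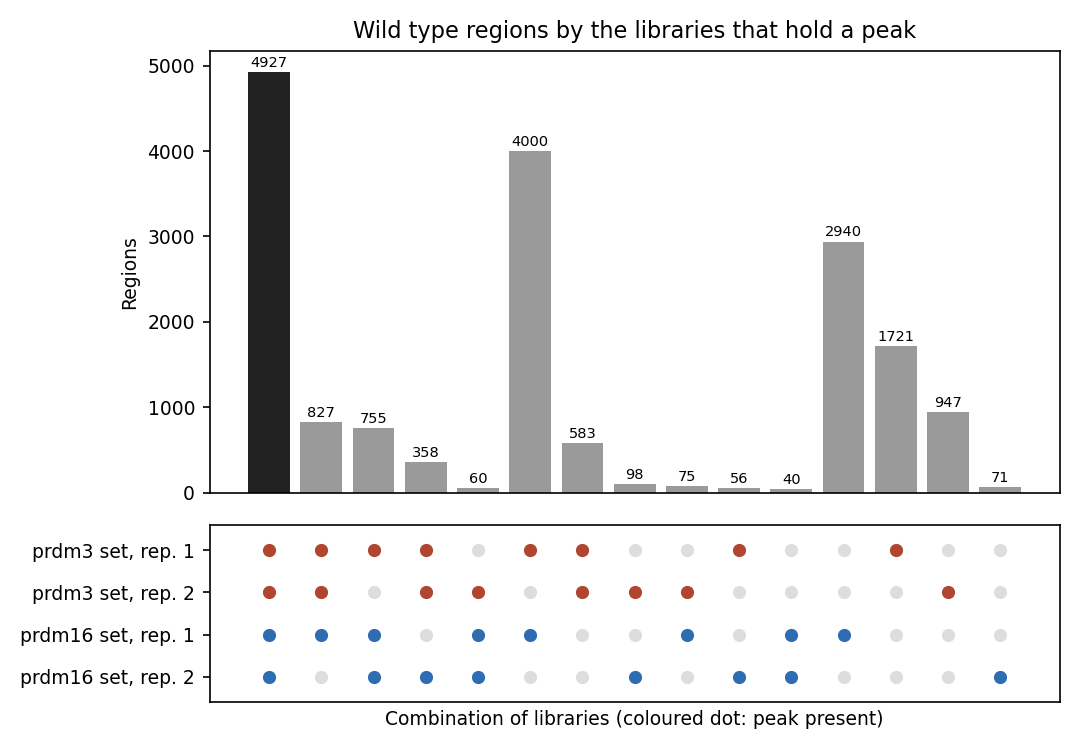
Bars give the number of merged wild type regions (vertical axis) for each of the 15 combinations of libraries, and coloured dots below name the libraries with a peak. The core of 4927 regions and the 4000 regions of both replicate 1 libraries stand above all other combinations.

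Regions in exactly 3 libraries show which library lacked a peak. Of these 2000 regions, 60 lacked prdm3-set replicate 1, 755 (37.8%) prdm3-set replicate 2, 358 (17.9%) prdm16-set replicate 1 and 827 (41.4%) prdm16-set replicate 2. The libraries with the fewest peaks were thus missing most often. In the 827 regions without a peak in prdm16-set replicate 2, the median area under the peak was 491 in prdm3-set replicate 1, 264 in prdm3-set replicate 2 and 578 in prdm16-set replicate 1. In the 755 regions without one in prdm3-set replicate 2, it was 496 in prdm3-set replicate 1, 630 in prdm16-set replicate 1 and 256 in prdm16-set replicate 2. In both cases the other short list held these regions at areas nearer to the floor of 200. The core itself reached that floor as well. In each core region the largest peak of every library was taken. The lowest of their areas had a median of 421, and it was under 250 in 791 core regions (16.1%).

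Core regions were wider than the others. Their median width was 839 bp (quartiles 657 and 1146 bp), against 662 bp (552 and 850 bp) for regions in 3 libraries, 575 bp (458 and 723 bp) for regions in 2 and 492 bp (386 and 617 bp) for regions in 1. A merged region widens with each peak it joins, and a stretch common to the libraries can only narrow with each library added. The stretch of a core region that was covered in all 4 libraries had a median of 550 bp. Over all peaks of a library, in the core or not, the median width was 581 and 604 bp in prdm3-set replicates 1 and 2. In prdm16-set replicates 1 and 2 it was 578 and 586 bp. The core spanned 5.86 Mb in all, from 118 bp to 26420 bp per region. Regions over 3 kb numbered 211 in the core (4.28%), against 8 among regions in 3 libraries, 3 among regions in 2 and 1 among regions in 1.

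**Figure D2:**
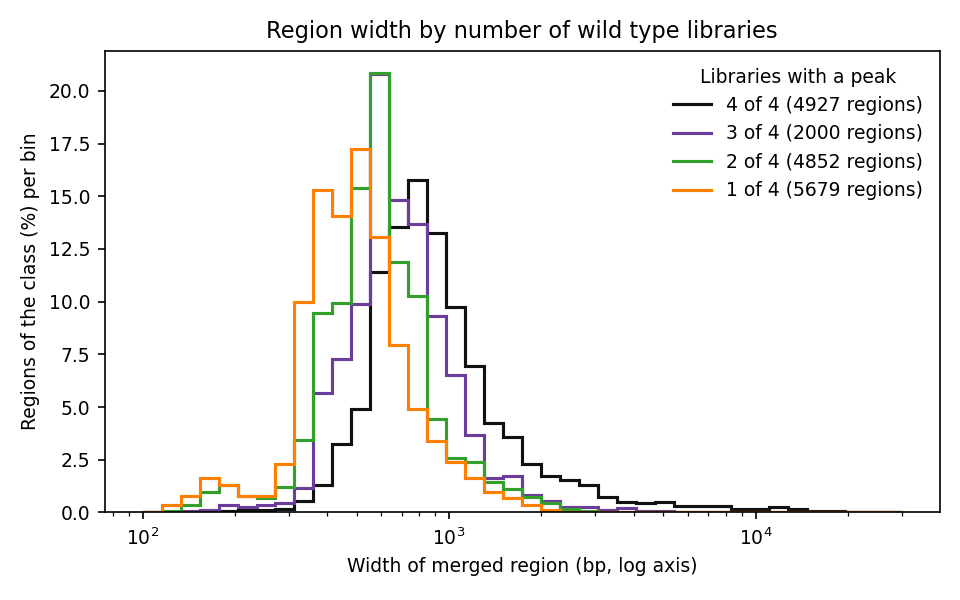
The horizontal axis is the width of the merged region in bp on a log scale, and the vertical axis the percent of a class of regions in each bin, for regions held by 4, 3, 2 or 1 of the wild type libraries. The curves move to the right with the number of libraries, and only the core has a long tail past 3 kb.

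The position of the peaks within a core region agreed closely between libraries for about as many regions as not. In 4273 core regions each library had exactly 1 peak. The summits of these 4 peaks, the points of highest signal, lay a median of 49 bp apart from first to last (quartiles 14 and 234 bp). They fell within 50 bp of each other in 2154 regions (50.4%) and over 500 bp apart in 94. In 2 core regions no base was covered by all 4 libraries, so these are chains of partly overlapping peaks.

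The strength of a peak was read from its −log10 p, given by the authors' peak caller and ranked within each library, with 100 for the strongest peak. Core regions ranked high in every library. The core makes up a larger part of a shorter list, which by construction lowers the highest median percentile it can reach there. In the prdm3 set the median percentile of core regions was 79.4 in replicate 1 and 66.8 in replicate 2, and in the prdm16 set 80.0 and 60.1. Regions in 3 libraries had medians of 49.6 and 37.3 in the prdm3 set and 58.3 and 22.0 in the prdm16 set. Regions in 1 library had medians of 19.1 and 10.97 in the prdm3 set and 20.2 and 6.79 in the prdm16 set. The order of the classes was the same in each of the 4 libraries, and the ranges between quartiles overlapped for neighbouring classes. They did not overlap between the core and regions in 1 library. The lower quartile of the core was 62.1 and 44.7 in the prdm3 set and 63.8 and 36.8 in the prdm16 set, above the upper quartile of regions in 1 library, which was 34.5 and 19.2 in the prdm3 set and 33.3 and 18.4 in the prdm16 set. These ranks describe the classes, with no test, since being called in 4 lists and ranking high in each are measured on the same peaks.

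**Figure D3:**
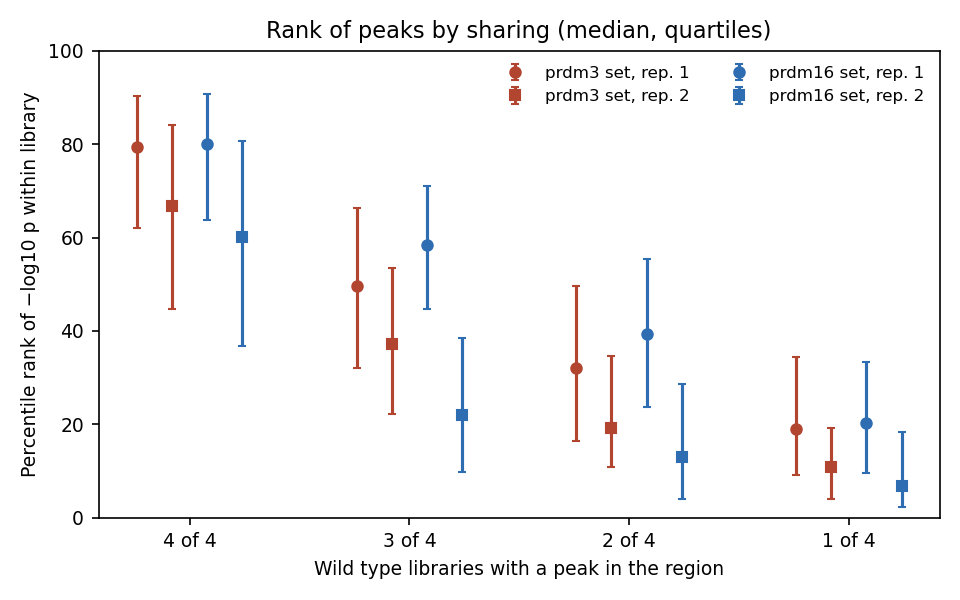
Points give the median and bars the quartiles of the percentile rank of −log10 p within each library (vertical axis), by the number of wild type libraries that held a peak in the region (horizontal axis). In each library the median falls with every step from 4 of 4 to 1 of 4, with core medians between 60.1 and 80.0.

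A small number of very strong, often very wide regions led all 4 lists. The strongest core region lay on an unplaced scaffold (bases 1 to 2309) and was the top peak of every library, with −log10 p of 18.7 and 19.5 in the prdm3 set and 16.9 and 18.4 in the prdm16 set. After it stood chr11:15106727-15116075, 9349 bp wide, with 18.5 and 18.4 in the prdm3 set and 16.6 and 17.4 in the prdm16 set. Next came chr24:12366681-12371423 with 18.2 and 18.2 in the prdm3 set and 16.7 and 17.3 in the prdm16 set. In all 3 the values of prdm16-set replicate 1 were the lowest. The other regions among the 10 strongest were a stretch of another unplaced scaffold (bases 5247 to 8283), chr17:39939036-39942962, chr24:12401785-12416885, chr7:53018087-53021241, chr10:16834229-16841586, chr7:53010681-53017567 and chr16:25920785-25922461. Each of the 10 had a percentile of at least 99.85 in every wild type library and a peak in all 4 mutant libraries. Of the 100 strongest core regions, 58 were over 3 kb wide, 13 lay on unplaced scaffolds and the median width was 3896.5 bp, against 839 bp for the core as a whole. The 100 strongest peaks of a library held 23.6% and 36.9% of its summed peak area in the prdm3 set and 18.7% and 38.2% in the prdm16 set. They covered 732 and 779 kb in the prdm3 set and 581 and 675 kb in the prdm16 set.

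Most of the 5 widest core regions also ranked high in every library, though none of them was among the 10 strongest. The first lay on an unplaced scaffold (bases 1 to 26420) and was followed by chr8:34770676-34796744 with 26069 bp, chr14:20091448-20114553 with 23106 bp, chr12:14380465-14403154 with 22690 bp and chr4:49372616-49391290 with 18675 bp. The first 4 had percentiles of 97.27 or more in every library. The region on chromosome 4 differed from them. It was built from 19 peaks, 2779 bp of it were covered in all 4 libraries, and its −log10 p was 6.37 and 6.84 in the prdm3 set, against 6.04 and 4.72 in the prdm16 set. What these stretches contain was not analysed here, since no genome sequence or annotation of the build was used.

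An ordinary core region looks different. At the middle of the ranking, chr1:47150843-47151543 was 701 bp wide and had −log10 p of 5.14 and 3.95 in the prdm3 set and 5.47 and 3.84 in the prdm16 set. Its areas were 973 and 453 in the prdm3 set and 1239 and 379 in the prdm16 set. The replicate 1 libraries of both sets were the higher ones here. Near the floor, chr20:51641843-51642478 had −log10 p of 3.46 and 3.47 in the prdm3 set and 3.78 and 3.27 in the prdm16 set, with areas of 220 and 235 in the prdm3 set and 520 and 200.1 in the prdm16 set. These regions were chosen after their values were seen, as examples of the middle and the weak end.

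Core regions were spread over all 25 chromosomes, with clusters. Of the 4927, 4764 lay on placed chromosomes and 163 (3.31%) on unplaced scaffolds. Taking the length of a chromosome as the end of its last peak, the placed core had 3.54 regions per Mb, and the median chromosome had 3.51. Chromosome 25 was the densest, with 5.04 per Mb (189 regions), before chromosome 3 with 4.63 (290 regions) and chromosome 8 with 4.51 (245 regions). The sparsest were chromosome 9 with 2.305 (130 regions), chromosome 14 with 2.55 (134 regions) and chromosome 1 with 2.94 (175 regions). The first and the last place of this order held in every library taken alone. Other places did not all hold, as chromosome 1 stood 18th and 21st in the prdm3 set and 19th and 22nd in the prdm16 set. Chromosome 25 had the most peaks per Mb, with 12.7 and 8.46 in the prdm3 set and 12.6 and 7.12 in the prdm16 set, and chromosome 9 the fewest, with 7.34 and 3.35 in the prdm3 set and 7.73 and 3.01 in the prdm16 set.

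**Figure D4:**
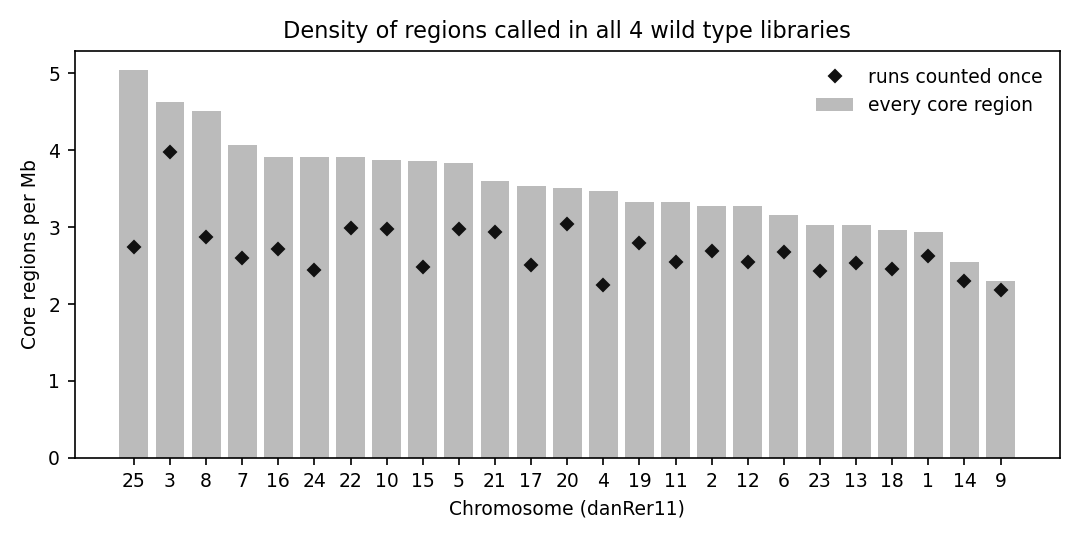
Bars give core regions per Mb (vertical axis) for the 25 chromosomes, ordered from the densest to the sparsest, and diamonds the density when a run of core regions with gaps of 10 kb or less counts once. Chromosome 25 drops to 2.75 per Mb with runs counted once, while chromosome 9 is last by both counts.

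The place of chromosome 25 rested on runs of neighbouring regions. With core regions linked by gaps of 10 kb or less counted once, its density was 2.75 per Mb, 9th of 25, and 81 of its 189 core regions lay in runs of 5 or more. Chromosome 3, which had no such run, was then first with 3.98 per Mb, and chromosome 9 was still last with 2.18. The ratio of the densest to the sparsest chromosome was 2.19 with every region counted and 1.82 with runs counted once. Chromosome 4, whose long arm is known to be rich in repeats and in heterochromatin, moved most between libraries in its place among the chromosomes. This concerns its order and not the size of the change in its peak density. It stood 13th and 2nd in peaks per Mb in prdm3-set replicates 1 and 2 (9.84 and 8.05) and 24th and 3rd in prdm16-set replicates 1 and 2 (8.49 and 6.27). Its 271 core regions had a median width of 1064 bp, and with runs counted once its density of 2.24 was 24th of 25. Across the 25 chromosomes, the rank correlation (Spearman) of peaks per Mb was 0.71 within the prdm3 set and 0.60 within the prdm16 set, against 0.84 between the replicate 1 libraries and 0.94 between the replicate 2 libraries of the sets. Chromosomes share their length, repeats and gene density in all libraries, so these values are descriptions. The first Mb of the chromosomes held 224 placed core regions (4.70%), against 166 (2.99%) of the placed regions in 1 library 3.70% of all placed wild type regions and 1.86% of the summed length. For the peaks of single libraries the share was 3.84% and 3.74% in the prdm3 set and 3.97% and 4.42% in the prdm16 set.

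Core regions in runs were wider than those that stood alone. The limits of 10 kb and of 5 regions were chosen after the data were seen. There were 71 runs of 5 or more core regions, which held 721 of the placed core (15.1%), while 886 regions lay in 391 runs of 2 to 4 and 3157 (66.3%) stood alone. Regions in runs of 5 or more had a median width of 1333 bp and 122 of them (16.9%) exceeded 3 kb, against 797 bp and 24 (0.76%) for regions that stood alone. Runs of 2 to 4 lay between, with a median width of 862.5 bp and 45 regions (5.08%) over 3 kb. The quartiles overlapped, at 808 and 2430 bp in runs of 5 or more and 640 and 992 bp for regions that stood alone. The longest run, chr24:12401785-12563429, held 39 core regions over 161.6 kb, and core regions covered 69.7% of it. The next were chr16:18175860-18270502 with 28 regions, chr15:9739247-9856035 with 27, and chr12:14338874-14452377 and chr8:34427118-34542057 with 21 each. They were not alike in density of coverage, since core regions covered 20.6% of the run on chromosome 15 and 72.2% of that on chromosome 16. Among the 100 strongest core regions, 51 lay in runs of 5 or more. Runs were formed on placed chromosomes only, and 13 of the 100 lay on unplaced scaffolds. For the placed core as a whole, the gap between neighbours had a median of 98.6 kb (quartiles 11.2 and 367 kb) and reached 4.42 Mb.

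The rank of regions in runs differed between libraries. In the prdm3 set the median percentile of regions in runs of 5 or more was 84.0 in replicate 1 and 84.7 in replicate 2. In the prdm16 set it was 64.6 in replicate 1 and 78.8 in replicate 2. For regions that stood alone the medians were 78.0 and 62.3 in the prdm3 set, against 81.3 and 54.6 in the prdm16 set. The ranges between quartiles overlapped in every library. In prdm3-set replicate 1 the quartiles were 58.8 and 96.4 in these runs and 62.1 and 88.4 for regions that stood alone. In prdm16-set replicate 1 they were 30.1 and 88.0 in runs and 68.5 and 90.5 for regions that stood alone. By their medians, regions in runs thus ranked above those that stood alone in 3 libraries and below them in prdm16-set replicate 1. This is the library with the most peaks and with the smallest share of area in its 100 strongest peaks.

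The comparison of the wild types of the prdm3 set with those of the prdm16 set asks how alike the controls of both experiments were. No library-level measure separated the sets. The log2 number of peaks averaged 13.37 ± 0.52 in the prdm3 set and 13.25 ± 0.75 in the prdm16 set (SD, n = 2 each), a difference of 0.11 with p = 1 by a two-sided exact permutation test. The log2 number of bases covered averaged 22.98 ± 0.37 in the prdm3 set and 22.80 ± 0.60 in the prdm16 set (exact p = 0.667). The median peak width was 592.5 ± 16.3 bp in the prdm3 set and 582 ± 5.66 bp in the prdm16 set (exact p = 0.667). The share of peaks in the core was 51.1 ± 17.9% in the prdm3 set and 58.2 ± 28.8% in the prdm16 set, with exact p = 1. The median −log10 p of core regions was 4.53 ± 0.50 in the prdm3 set and 4.52 ± 0.71 in the prdm16 set, and the share of area in the 100 strongest peaks 30.3 ± 9.39% in the prdm3 set and 28.5 ± 13.9% in the prdm16 set, both with exact p = 1. With 2 libraries per set the smallest p this test can give is 0.333, for any of the 6 measures, so it cannot reach 0.05 before or after adjustment. In 5 of the 6 measures the replicates within a set lay farther apart than the means of the sets.

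By the regions they held, libraries of like replicate number overlapped more than libraries of the same set. The replicate 1 libraries of the sets shared 10509 regions, 79.5% of those of the prdm3-set library and 77.1% of those of the prdm16-set library, which is 64.3% of the regions held by either. The replicate 2 libraries shared 5443, 69.1% of those of the prdm3-set library and 85.5% of those of the prdm16-set library, or 61.9% of either. Within the prdm3 set, 6695 shared regions made up 50.6% of replicate 1 and 85.0% of replicate 2, or 46.5% of either. Within the prdm16 set, 5782 made up 42.4% of replicate 1 and 90.8% of replicate 2, or 40.7% of either. The remaining pairs, of different set and different number, shared 45.2% and 37.7% of the regions held by either. The pairs of like number thus overlapped most over the regions of either list, while 74.8 to 95.8% of the shorter list of each of the 6 pairs lay in the longer one. Pairs of like number also had like numbers of peaks. When each library was held to its 6777 strongest peaks, the pairs of like number still shared the most, again of the regions held by either. The share was 66.9% for replicate 1 and 67.3% for replicate 2, against 56.4% within the prdm3 set and 55.9% within the prdm16 set. It was 57.3% for prdm3-set replicate 1 with prdm16-set replicate 2, and 53.0% for prdm3-set replicate 2 with prdm16-set replicate 1. Within the core, the rank correlation of −log10 p was 0.79 within the prdm3 set and 0.69 within the prdm16 set, against 0.76 between the replicate 1 libraries and 0.85 between the replicate 2 libraries over the same 4927 regions. Of the pairs that differ in both set and number, prdm3-set replicate 1 with prdm16-set replicate 2 had 0.83, the second highest of the 6 values, and prdm3-set replicate 2 with prdm16-set replicate 1 had 0.59, the lowest. The ranks within the core thus followed neither the set nor the replicate number. The labels do not say what libraries of like number share, and its part in these values was not tested.

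Regions held by both libraries of a set and by none of the other set numbered 583 for the prdm3 set and 40 for the prdm16 set, 3.87 apart on the log2 scale. The difference changed with the setting. At −log10 p of 4 or more, a threshold chosen after seeing the data, the log2 ratio was 3.98. Its counts were 174 for the prdm3 set and 11 for the prdm16 set. With the 6777 strongest peaks of each library, the counts were 113 for the prdm3 set and 209 for the prdm16 set, so the direction turned round (log2 ratio −0.89). Both stood below the regions held by the replicate 1 libraries alone (760) or by the replicate 2 libraries alone (654) at equal numbers. The prdm16 set holds both the longest and the shortest of the 4 lists.

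**Figure D5:**
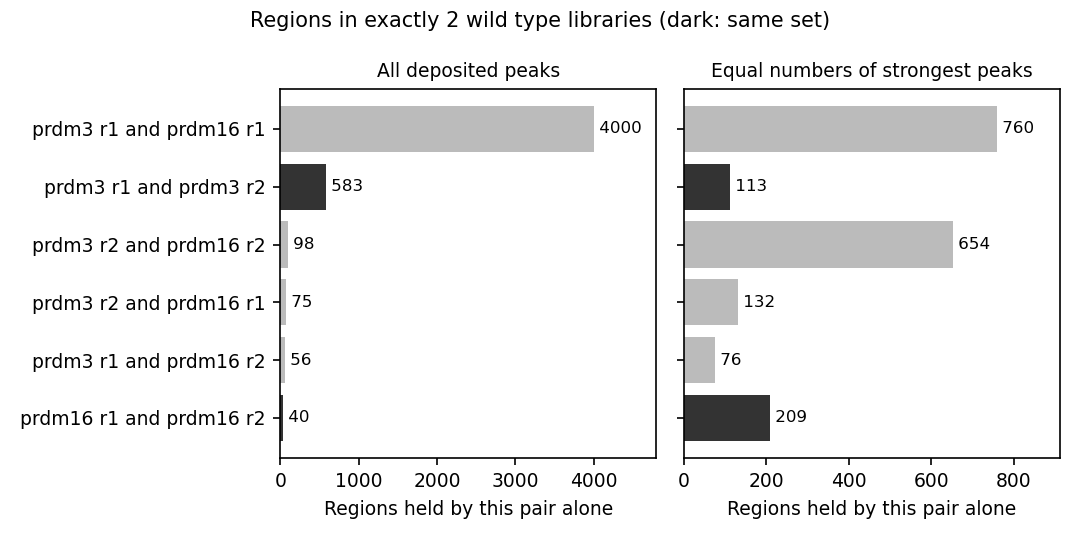
Bars give the regions held by a pair of wild type libraries and by neither of the others (horizontal axis, with a scale of its own in each panel), for all peaks on the left and for equal numbers of strongest peaks on the right, with pairs of 1 set in dark. The prdm3 pair holds 583 against 40 for the prdm16 pair with all peaks, and 113 against 209 at equal numbers.

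The 583 regions of the prdm3 set alone were unlike the core in strength. The lower of their 2 percentiles had a median of 7.12, against 51.5 for the lowest of 4 in the core, and their median width was 901 bp. That median percentile was 6.44 for the replicate 2 libraries alone and 29.4 for the replicate 1 libraries alone. Of the 583 regions, 59.0% of those on placed chromosomes lay within 10 kb of another wild type region, and 10.8% of all lay on chromosome 4. In the core these shares were 54.7% and 5.50%. The share near another region was 62.2% for the replicate 2 libraries alone, 42.1% for the prdm16 set alone and 40.1% for the replicate 1 libraries alone. The share on chromosome 4 was higher still in the 40 regions of the prdm16 set alone (12.5%) and in the 98 of the replicate 2 libraries alone (23.5%), and it was 3.03% in the 4000 of the replicate 1 libraries alone. The strongest, chr7:562605-563537, had −log10 p of 4.47 and 4.14 in prdm3-set replicates 1 and 2 and no peak in the prdm16 set. It was followed by chr17:46503266-46503449, chr16:16036313-16036916, chr22:37689524-37689970 and chr1:24600222-24600894, whose −log10 p lay between 4.06 and 5.11. The 40 regions of the prdm16 set alone had a median width of 535.5 bp and a median lower percentile of 17.6. Their strongest, chr10:30417395-30417691, had −log10 p of 4.91 and 4.14 in prdm16-set replicates 1 and 2, before chr19:10395567-10396296, chr7:66859608-66860101, chr16:228102-228627 and chr4:49581323-49582223. The lower percentile of each of these 10 regions was 65.7 or less, while −log10 p in the same libraries reached 16.9 to 19.5.

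The mutant libraries took no part in choosing these regions. The regions of the prdm3 set alone had a peak in 16.1% (13.4 to 19.3%) and 14.1% (11.5 to 17.1%) of cases in the prdm3 mutant libraries and in 18.7% (15.7 to 22.1%) and 8.06% (6.12 to 10.6%) in the prdm16 mutant libraries, and 375 of the 583 had no peak in any mutant. The regions of the prdm16 set alone had one in 60% (44.6 to 73.7%) and 72.5% (57.2 to 83.9%) of cases in the prdm3 mutant libraries and in 80% (65.2 to 89.5%) and 37.5% (24.2 to 53.0%) in the prdm16 mutant libraries, and 3 of the 40 had no peak in any mutant. The regions of the replicate 1 libraries alone had one in 98.7% (98.3 to 98.99%) and 93.7% (92.9 to 94.4%) of cases in the prdm3 mutants and in 56.4% (54.9 to 57.9%) and 10.1% (9.20 to 11.1%) in the prdm16 mutants. These mutant libraries had 18266 and 15115 peaks for prdm3 and 10682 and 6590 for prdm16, and the share of the replicate 1 regions fell in the same order. The 98 regions of the replicate 2 libraries alone went the other way, with a peak in 5.10% (2.199 to 11.4%) and 23.5% (16.2 to 32.8%) of cases in the prdm3 mutants and in 45.9% (36.4 to 55.8%) and 54.1% (44.2 to 63.6%) in the prdm16 mutants. Of all regions in 2 wild type libraries, mostly those of the replicate 1 libraries alone, the prdm3 mutants held 85.3% and 81.6%. The prdm16 mutants held 51.6% and 11.5% of them. Of regions in 1 library, the prdm3 mutants held 60.7% and 45.8% and the prdm16 mutants 17.0% and 3.06%. The shares for the prdm3 set alone lay below both classes in the prdm3 mutants of their own set. In the prdm16 mutants they lay between the classes, with an interval in replicate 1 that included the 17.0% of regions in 1 library. These Wilson intervals cover counting error only, not the spread between libraries, and neighbouring regions may not be independent.

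Within the core, each region was also ranked among the 4927 in every library, so that lists of equal length were compared. Both prdm3-set libraries ranked a region above both prdm16-set libraries in 506 cases (10.3%), and both prdm16-set libraries ranked it above both prdm3-set libraries in 998 cases (20.3%). In the other 3423 (69.5%) the ranks of the sets overlapped. These counts describe the 4 libraries and do not show a difference between the sets. In runs of 5 or more, 17.8% of regions ranked higher in the prdm3 set and 9.02% in the prdm16 set, while in the rest of the placed core 8.68% ranked higher in the prdm3 set and 22.6% in the prdm16 set. On chromosome 4 the shares were 19.6% for the prdm3 set and 14.8% for the prdm16 set, and in the first Mb of the chromosomes 8.48% and 26.3%. The gap between the nearest ranks of the sets exceeded 20 percentile points in 52 regions that ranked higher in the prdm3 set and in 49 that ranked higher in the prdm16 set.

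The regions with the widest gaps were picked by their values and are examples only. In chr13:15293392-15293912, 521 bp wide, the percentile within the core was 69.2 and 68.3 in the prdm3 set and 16.3 and 5.18 in the prdm16 set, with areas under the peak of 863 and 519 in the prdm3 set and 486 and 296 in the prdm16 set. In chr12:20523799-20524580 the percentile was 57.6 and 76.9 in the prdm3 set and 3.69 and 17.96 in the prdm16 set. In the other direction, chr4:77554884-77566311, 11428 bp wide, had percentiles of 16.4 and 27.3 in the prdm3 set and 80.5 and 76.7 in the prdm16 set. The largest peak of each library there had areas of 10889 and 2831 in the prdm3 set and 21249 and 1896 in the prdm16 set. By the area of that peak the sets overlapped. In chr1:46815751-46816376, 626 bp wide, the percentiles were 26.1 and 15.1 in the prdm3 set and 60.9 and 64.2 in the prdm16 set.

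Each mutant library held most of the core. A peak overlapped 98.0% (97.6 to 98.4%) and 98.6% (98.2 to 98.9%) of core regions in prdm3 mutant replicates 1 and 2, and 98.4% (98.1 to 98.7%) and 88.6% (87.6 to 89.4%) in prdm16 mutant replicates 1 and 2, with 95% Wilson intervals. The lowest share belonged to the mutant library with the fewest peaks. The highest share held by any mutant library was 87.7% for regions in 3 wild type libraries, 85.3% for those in 2 and 60.7% for those in 1. All 4 mutants held 4222 core regions (85.7%). The other 705 were narrower, with a median width of 680 bp against 868 bp, and weaker, with a median lowest percentile of 22.0 against 56.0. Both prdm3 mutants lacked 36 core regions and both prdm16 mutants lacked 44. The 2 core regions with no peak in any mutant were chr14:33373715-33374511 and chr6:57294988-57295305. Among all peaks of each library, both ranked lower in the prdm16 set than in the prdm3 set. Percentiles of the first were 19.1 and 60.7 in the prdm3 set and 1.58 and 1.62 in the prdm16 set. Those of the second were 36.9 and 49.4 in the prdm3 set and 16.7 and 22.0 in the prdm16 set. Within the core, the percentiles of the first were 1.97 and 42.3 in the prdm3 set and 0.822 and 0.365 in the prdm16 set. There the sets overlapped for the second, with 6.98 and 29.4 in the prdm3 set and 5.01 and 12.5 in the prdm16 set. The first had −log10 p of 3.46 and 4.02 in the prdm3 set and 3.03 and 2.94 in the prdm16 set, and the second 3.80 and 3.78 in the prdm3 set and 3.45 and 3.40 in the prdm16 set.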

How the data were processed

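ATAC-seq libraries were made by tagmentation of nuclei from sorted cells, per the labels' protocols. Bowtie2 2.4.4, Genrich, cutadapt, TopHat2 2.1.1, bedtools 2.30.0 and Cufflinks, with the build danRer11, stand in the submitters' processing notes without their roles, and caller settings are not given there. Peaks were deposited per library, with no pooling of replicates recorded. Each peak carries the authors' score, signal (area under the peak) and −log10 p, which served to describe, rank and filter peaks within a library, and a summit offset. A column for q holds no values. RNA values, deposited by the authors in tables of selected genes, are taken as FPKM because Cufflinks stands in those notes, since the tables name no unit.

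Coordinates are 1-based. Peaks of the 4 wild type libraries were merged at an overlap of 1 bp or more with Python 3.11.15, pandas 2.3.3, NumPy 2.4.6 and SciPy 1.17.1, and the merging was tested on simulated peaks. Percentiles give tied peaks their mean rank. Where a library had several peaks in a region, the highest value of each measure stood for the region in that library. Sets were compared by exact permutation tests over libraries, and peak shares carry 95% Wilson intervals. Regions named are the 10 strongest and 5 widest of the core, the 5 strongest of each set alone, and the 3 densest and 3 sparsest chromosomes. Any further region is named as an example picked by its values. The regions, lists and measures were chosen with earlier results of these data known. The planned distances to gene starts, motifs and expression by region were not run, because no genome or annotation of the build was used here. Alternatives tried were the overlap rule, a higher −log10 p, equal numbers of peaks, a merging distance, placed chromosomes alone, the area in place of −log10 p, pairing by replicate number and leaving out each library.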

Additional observations from a re-analysis of the deposited data

How the results depend on the processing

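The core held between 3749 regions (equal numbers of strongest peaks) and 5762 (without prdm16-set replicate 2) under 10 of the 12 alternatives tried, each within 1.5 times 4927. It held 2104 at −log10 p of 4 or more and 2160 when regions within 10 kb of another were left out, both chosen after seeing the data, and both settings remove regions by construction. Its median width of 839 bp was 822 bp with a reciprocal overlap of 50%, 550 bp over the bases common to the 4 libraries, 817 bp without runs of 5 or more, 960 bp at −log10 p of 4 or more and 796 bp without regions within 10 kb of another (the last 3 chosen after seeing the data), and 782 to 810 bp when each library in turn was left out. The log2 ratio of regions of the prdm3 set alone over those of the prdm16 set alone was 3.87. It was 1.97 with a reciprocal overlap of 50% (651 for the prdm3 set and 166 for the prdm16 set). At −log10 p of 3 or more it was 3.30, and at 4 or more 3.98 (174 and 11 in the same order). Without regions near another it was 3.38, and this setting and the limit of 4 were chosen after seeing the data. With equal numbers of peaks it was −0.89. By construction that setting gives the lists equal length, and the cause of the shifts was not tested. The difference in log2 number of peaks, 0.11, ran from −0.41 to 0.64 when each library was left out. It turned to −0.25 without prdm3-set replicate 1 and to −0.41 without prdm16-set replicate 2, so 1 library decides its direction. By area under the peak in place of −log10 p, 520 core regions (10.6%) ranked higher in both prdm3-set libraries and 1091 (22.1%) in both prdm16-set libraries. With gaps of 5 or 20 kb, runs of 5 or more held 541 or 835 core regions (chosen after seeing the data).

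With the replicate number as a block, the difference in log2 number of peaks was 0.11, made of −0.04 for replicate 1 and 0.27 for replicate 2, with p = 1 by an exact sign-flip test whose smallest p is 0.5 with 2 pairs. Deviations of like-numbered libraries from their set, over core ranks, had a correlation of 0.39. The labels tie no animal, batch or day to a number, so the pairing was not used. What like-numbered libraries have in common beyond the number is not known. Unknown read totals limit what a missing peak shows.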
